A study of Mus musculus with 6 samples.

Results

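The 10 genes described here are the mouse platelet-derived growth factor (PDGF) ligand genes Pdgfa, Pdgfb and Pdgfc, the PDGF receptor genes Pdgfra and Pdgfrb, the fibroblast growth factor (FGF) ligand genes Fgf2, Fgf7 and Fgf10, and the FGF receptor genes Fgfr1 and Fgfr2. They were taken by name from a list drawn up with earlier results of these data known, and are 10 of the 31055 counted features. They were followed in fibroblasts, pericytes and smooth muscle, endothelium, epithelium and myoepithelium of the mammary gland, through 3 disease states.

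All 6 single-cell RNA-seq libraries came from female C3(1)-Tag mice, labelled C3TAG, and each state had 2. This is a transgenic model on the FVB/NJ background in which the regulatory sequence of the rat C3(1) gene drives the SV40 large T antigen and mammary tumors form. Prepuberty libraries were made from whole glands at 5 weeks of age, DCIS libraries from whole glands at 14 weeks that held lesions like ductal carcinoma in situ, and Tumor libraries from palpable tumors after 18 weeks. All states carry the transgene, no gland without it is among these samples, and state changes together with age and with the tissue taken. The study set out to follow the epithelium and its surroundings from normal ducts to invasive tumors. The labels do not say whether libraries of a state came from different animals, and the study speaks both of technical replicates and of 2 specimens, so an SE or p-value here measures the spread between libraries. For tumors, the labels give the overnight digestion used for glands, while a separate tumor dissociation kit is named in the methods. The labels give 1 library kit version, and the methods name a later version for Tumor 2. Effects of these steps and of state cannot be told apart.

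PDGF ligands are dimers of A, B, C or D chains. The alpha receptor, encoded by Pdgfra, binds the A, B and C chains, and the beta receptor, encoded by Pdgfrb, binds mainly the B chain. In vessels, PDGF-B made by endothelial cells attracts pericytes that carry the beta receptor, and Pdgfra is a usual marker of fibroblasts. FGF7 and FGF10 are made by mesenchyme and act on the epithelial splice form of the Fgfr2 receptor, and signalling by FGF10 through this receptor is needed for mammary buds to form. FGF2 is a ligand without a usual signal peptide that binds heparan sulfate and can act through several receptors. Counts per gene do not separate splice forms.

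After filters, 21537 of 23835 barcodes remained, 2548 to 4306 per library, with 237053414 unique molecular identifiers (UMIs, the counted RNA molecules) and a median of 6541 to 13631.5 per cell. Pairs of libraries shared 9 to 39 barcode sequences. Cells were grouped into 21 clusters without use of the 10 genes, and 2 clusters stayed unnamed. The classes are called "-like" because they rest on other marker genes. Endothelial-like cells held 4114 to 7305 CPM (UMIs scaled to a total of 1000000 in each class and library) of the 9 endothelial markers, and pericyte- or smooth-muscle-like cells held 6625 to 13117 CPM of the 11 pericyte or smooth muscle markers. The sum of the 9 fibroblast markers in fibroblast-like cells was 6862 to 14179 CPM in the glands and 36392 and 35784 CPM in Tumor 1 and Tumor 2. Cells of these 3 classes that lay, within their own library, in a cluster with T antigen in at least 20% of cells were set apart as T-antigen mesenchymal cells: 1 cell in DCIS 2, 91 in Tumor 1 and 253 in Tumor 2. The name says only which clusters they came from, since those of Tumor 1 held more of the epithelial than of the fibroblast markers. Tumor 1 kept 97 cells of these classes from a cluster with T antigen in 18.6% of cells, and 74 from 1 with 13.5%. Gland clusters made mostly of these classes held it in 0% to 1.56% of cells. Tumor stroma was thin: 172 and 42 fibroblast-like, 76 and 31 endothelial-like, and 25 and 0 pericyte- or smooth-muscle-like cells were left in Tumor 1 and Tumor 2. The glands held 642 to 2099, 353 to 703 and 97 to 396 of them. A level below is the CPM of a gene in the summed UMIs of all cells of the class in 1 library, with at least 10 cells. Values are given for Prepuberty 1 and 2, DCIS 1 and 2, and Tumor 1 and 2 in this order.

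The promoters of 7 of the 10 genes were matched in RefSeq on mouse build GRCm38.p6, as windows from 250 bases before to 50 after a transcript's start. Those of Fgf2 and Pdgfc are shown because these were the member genes that rose in tumor fibroblasts, that of Fgfr2 because it was low in the epithelial-like cells of the tumors, and that of Pdgfa because this ligand fell in tumor endothelium and its RNA was seen in most classes. Pdgfa had another window, chr5:138994232-138994531 on the - strand with 1 GC box and 67% GC, which is not printed, and which start was used was not examined. Capitals mark the GC box, GGGCGG or its reverse complement CCGCCC.
Fgf2, chr3:37348403-37348702, + strand: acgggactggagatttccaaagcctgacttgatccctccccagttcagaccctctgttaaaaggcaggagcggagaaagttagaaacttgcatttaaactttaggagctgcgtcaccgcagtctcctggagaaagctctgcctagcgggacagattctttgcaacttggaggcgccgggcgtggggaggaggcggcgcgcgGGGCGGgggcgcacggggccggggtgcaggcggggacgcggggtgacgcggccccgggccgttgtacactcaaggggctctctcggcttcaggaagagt
Pdgfc, chr3:81036166-81036465, + strand: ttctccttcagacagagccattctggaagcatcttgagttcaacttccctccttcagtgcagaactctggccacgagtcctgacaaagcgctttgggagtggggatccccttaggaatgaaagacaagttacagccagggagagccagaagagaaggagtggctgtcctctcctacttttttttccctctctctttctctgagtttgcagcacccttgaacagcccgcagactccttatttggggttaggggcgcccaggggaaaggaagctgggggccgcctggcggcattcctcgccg
Fgfr2, chr7:130266759-130267058, - strand: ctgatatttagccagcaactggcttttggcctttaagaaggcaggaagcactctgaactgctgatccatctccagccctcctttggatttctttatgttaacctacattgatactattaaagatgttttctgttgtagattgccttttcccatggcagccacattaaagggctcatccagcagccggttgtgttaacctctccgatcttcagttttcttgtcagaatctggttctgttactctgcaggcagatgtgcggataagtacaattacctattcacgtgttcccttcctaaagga
Pdgfa, chr5:138994895-138995194, - strand: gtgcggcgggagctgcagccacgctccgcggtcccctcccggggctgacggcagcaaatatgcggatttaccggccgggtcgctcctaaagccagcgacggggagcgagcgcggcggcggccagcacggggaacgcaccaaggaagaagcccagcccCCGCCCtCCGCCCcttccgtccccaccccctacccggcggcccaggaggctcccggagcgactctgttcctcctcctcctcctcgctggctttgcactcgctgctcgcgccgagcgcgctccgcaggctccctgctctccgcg

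The Fgf2 window held 1 GC box and the Pdgfa window 2 that did not overlap. The windows of Pdgfc and Fgfr2 held none. Of 32851 promoters of the same length, 35.7% held a GC box on either strand. The other motifs searched on both strands were AP-1 (TGANTCA, in 7.81% of promoters), the cyclic AMP element (TGACGTCA, 1.79%), the ETS motif (CCGGAAG, 8.86%) and the TATA box (TATAAA, 13.6%), and none of them was in these 4 windows. The GC content was 62.7% for Fgf2, 55% for Pdgfc, 43.7% for Fgfr2 and 73.3% for Pdgfa, beside a median of 52.7% over all promoters. A match of letters is a description and not a binding site.

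Each ligand and receptor had its own distribution over the classes. Classes came from clustering, so their order is a description with no test, and neighbours in it mostly had overlapping library ranges.

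**Figure D1:**
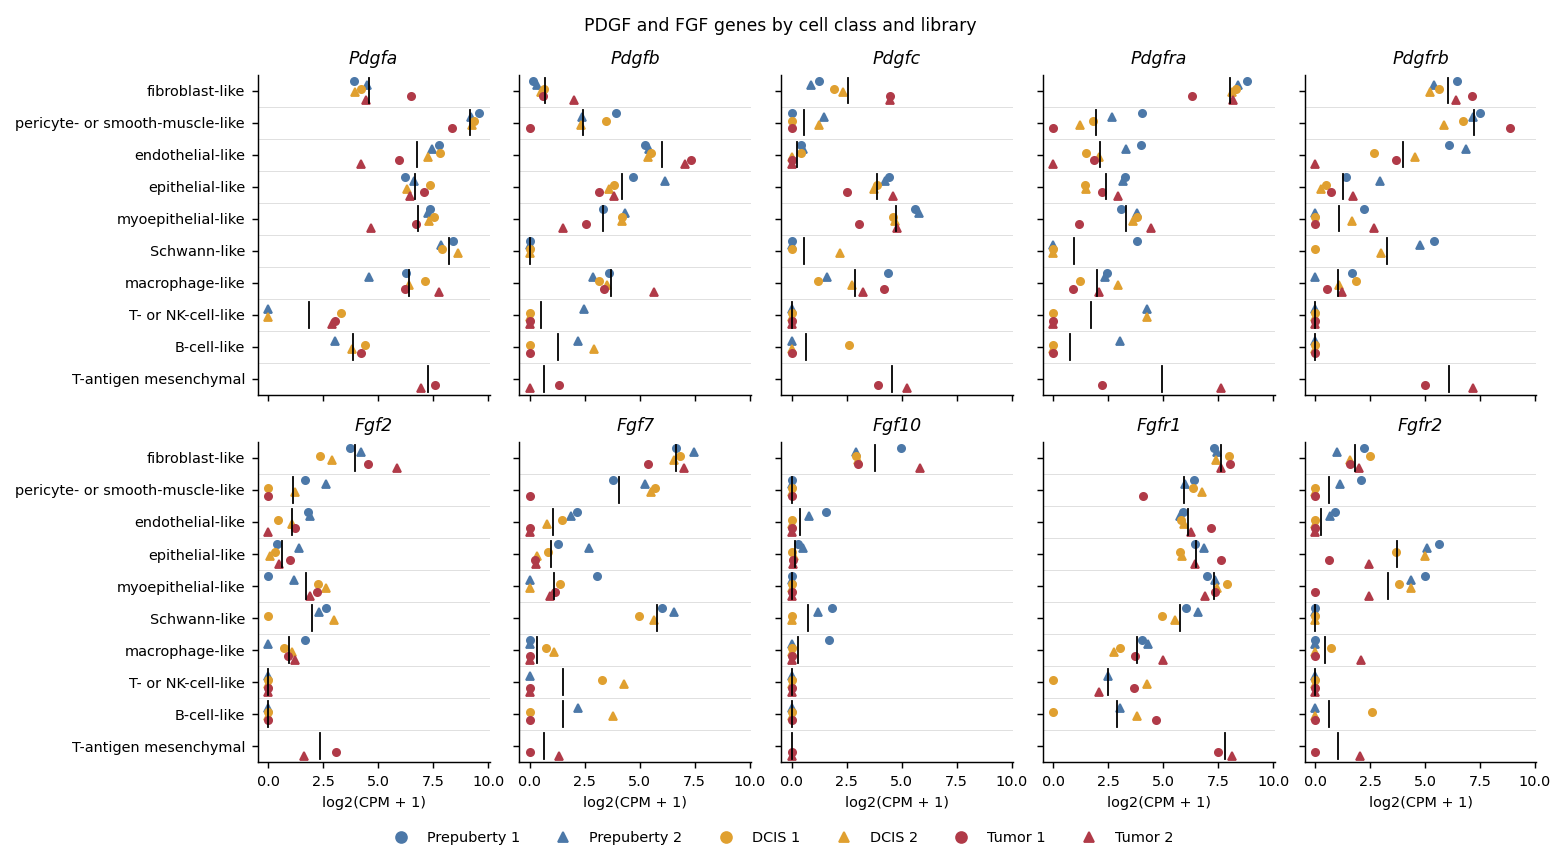
Level of each of the 10 genes by cell class, as log2(CPM + 1), 1 point per library with at least 10 cells of the class. Blue is Prepuberty, yellow DCIS and red Tumor, circles are library 1 and triangles library 2, and black bars are means over libraries. Fgf10 lies in the fibroblast-like class, with 6.63 to 57.0 CPM, Fgfr2 in the epithelial- and myoepithelial-like classes, and Pdgfb highest in the endothelial-like class.

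Pdgfa, the A-chain gene (chr5:138976014-139000792), was highest in pericyte- or smooth-muscle-like cells at 593 ± 163 CPM (SD, n = 5 libraries). Schwann-like cells followed at 301 ± 80.4 CPM (n = 4), a range that overlapped the first but not the next. Endothelial-, myoepithelial- and epithelial-like cells had means of 142, 131 and 106 CPM with overlapping ranges, and T-antigen mesenchymal cells had 189 and 123 CPM in Tumor 1 and Tumor 2. Fibroblast-like cells had the lowest Pdgfa level among the mesenchymal and epithelial classes, 29.5 ± 29.1 CPM (n = 6). Since cell numbers differed too, the share of a library's Pdgfa UMIs in epithelial-like cells ran from 7.5% in Prepuberty 2 to 75.9% in Tumor 1.

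Pdgfb, the B-chain gene (chr15:79995865-80024614), was highest in endothelial-like cells at 75.8 ± 54.4 CPM (n = 6). It was next in epithelial-like cells at 23.2 ± 23.4 CPM, and the ranges of both overlapped. Fibroblast-like cells held 15 Pdgfb UMIs in all 6 libraries, at most 2.998 CPM. Pdgfc, the C-chain gene (chr3:81036416-81214040), had its highest mean in myoepithelial-like cells, 30.7 ± 17.1 CPM (n = 6). T-antigen mesenchymal cells had 14.0 and 37.0 CPM of Pdgfc and epithelial-like cells 15.4 ± 6.70 CPM (n = 6), and these ranges overlapped. Endothelial-like cells held 6 Pdgfc UMIs in all.

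Pdgfra (chr5:75151322-75198206) was highest in fibroblast-like cells at 289 ± 119 CPM (n = 6). No other class with a named cell type had more than 20.8 CPM of it. T- or NK-cell-like cells, which should lack the gene, held up to 18.2 CPM from at most 4 UMIs, so levels of this size in other classes are not separated from free RNA. Pdgfrb (chr18:61045127-61085067) was highest in pericyte- or smooth-muscle-like cells at 189 ± 159 CPM (n = 5). Fibroblast-like cells had 73.3 ± 39.9 CPM (n = 6) and endothelial-like cells 37.1 ± 45.3 CPM (n = 6), and the ranges of these 3 classes overlapped. No Pdgfrb UMI was seen in the B-cell-like or T- or NK-cell-like sums.

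Fgf10 (chr13:118714699-118792573) was seen in fibroblast-like cells at 19.1 ± 20.8 CPM (n = 6), above every library of the next class. This class held 87.5% to 100% of each library's Fgf10 UMIs. Fgf7 (chr2:126034658-126091185) was also highest there at 107 ± 43.1 CPM (n = 6), with 71.2% to 93.4% of each library's UMIs. Schwann-like cells had 58.8 ± 26.0 CPM (n = 4) and pericyte- or smooth-muscle-like cells 28.9 ± 21.6 CPM (n = 5) of Fgf7, with overlapping ranges. Fgf2 (chr3:37348477-37410106) was highest in fibroblast-like cells at 19.9 ± 19.4 CPM (n = 6), and no other class had more than 7.37 CPM.

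Fgfr1 (chr8:25518759-25575718) was the most widely spread receptor. T-antigen mesenchymal cells had 179 and 274 CPM in Tumor 1 and Tumor 2. The mean was 200 CPM in fibroblast-like, 164 in myoepithelial-like, 98.0 in epithelial-like, 74.1 in endothelial-like and 70.2 in pericyte- or smooth-muscle-like cells, and each range overlapped the next. B-cell-like cells had 0 to 24.4 CPM. Fgfr2 (chr7:130162451-130266808), the receptor of FGF7 and FGF10 in epithelium, was highest in epithelial-like cells at 21.4 ± 18.6 CPM and in myoepithelial-like cells at 14.6 ± 11.3 CPM (n = 6 each). Epithelial-like cells held 68.1% to 85.5% of each library's Fgfr2 UMIs. Fibroblast-like cells had 0.991 to 4.65 CPM.

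**Figure D2:**
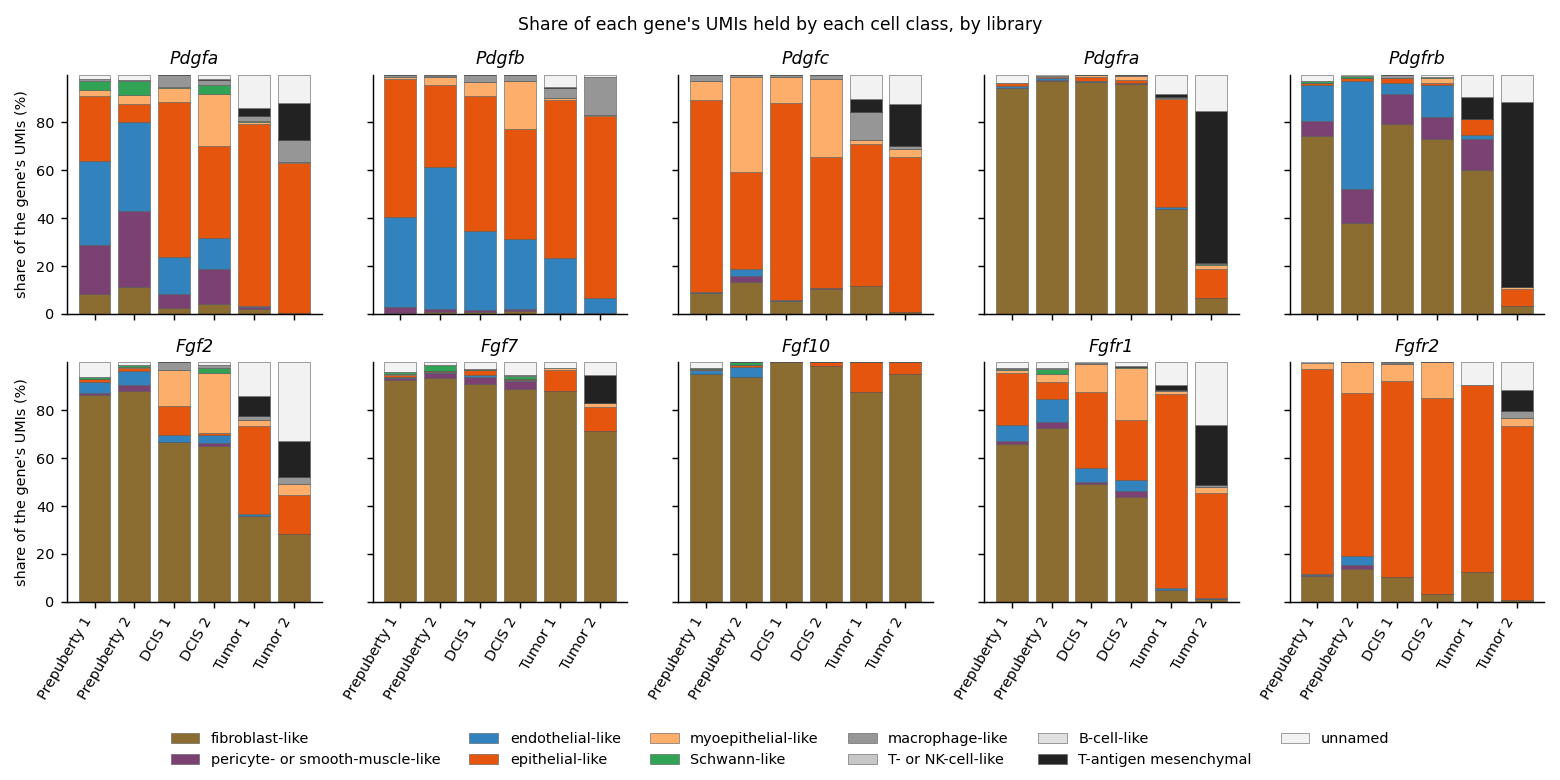
Share of each library's UMIs of a gene that lay in each cell class, in percent, 1 stacked bar per library. In the 4 gland libraries 94.3% to 97.4% of Pdgfra UMIs lay in fibroblast-like cells, beside 44.0% in Tumor 1 and 6.6% in Tumor 2, where T-antigen mesenchymal cells held 63.8%.

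The classes that held the receptor UMIs differed between tumors and glands, and both cell numbers and levels per class differed with them. In Tumor 2, T-antigen mesenchymal cells held 63.8% of Pdgfra and 77.2% of Pdgfrb UMIs, at 195 and 143 CPM. In Tumor 1 the same class held 3.69 CPM of Pdgfra, from 5 UMIs, and 30.97 CPM of Pdgfrb. The fibroblast marker sums went the same way, 214 CPM in Tumor 1 and 8240 CPM in Tumor 2, and the epithelial marker sums were 1207 and 167 CPM. The T-antigen mesenchymal cells of the tumors were therefore unlike each other in both receptors. With 1 library each they allow no test.

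In fibroblast-like cells, 2 ligand genes rose in the Tumor state. Pdgfc rose against Prepuberty and Fgf2 rose against DCIS. Levels of Pdgfra and Fgf7 were lower in Tumor 1 than in every gland without passing this test, and no member gene passed between DCIS and Prepuberty. Sums of a class were compared with the quasi-likelihood test of edgeR with Benjamini-Hochberg adjustment over all genes tested and a threshold of 0.05 on the adjusted p. A fold change here is on TMM-scaled sums. Of the 10 genes, 9 had enough counts, all except Pdgfb.

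Pdgfc stood at 1.34 and 0.867 CPM in Prepuberty, 2.79 and 3.97 CPM in DCIS, and 21.0 and 21.0 CPM in Tumor, where Tumor 1 had 41 and Tumor 2 had 7 UMIs. The states did not overlap. The log2 fold change in Tumor against Prepuberty was 3.89 (SE 0.56, edgeR adjusted p = 0.0151), a 14.8-fold difference. Pdgfc was the only member called among 9 tested in this comparison, in which 3.94% of all 11790 genes were called. The call was lost without Prepuberty 2 (adjusted p = 0.0635) or without Tumor 1 (adjusted p = 0.0922), with log2 fold changes of 3.58 and 3.59. Against DCIS the log2 fold change was 2.06 (SE 0.53, edgeR adjusted p = 0.0625).

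Fgf2 stood at 12.1 and 17.7 CPM in Prepuberty, 4.09 and 6.44 CPM in DCIS, and 22.0 and 57.0 CPM in Tumor, from 43 UMIs in Tumor 1 and 19 in Tumor 2. DCIS was the lowest state and Tumor the highest, without overlap. Against DCIS the log2 fold change in Tumor was 2.11 (SE 0.48, edgeR adjusted p = 0.0458), and Fgf2 was the only member called of 9, beside 4.43% of all genes. The adjusted p lay between 0.0705 and 0.239 without any 1 of the 4 libraries. The value rested on setting T-antigen cells apart, since it was 0.41 with them put back (adjusted p = 0.677) and 0.96 with each cell that had a T-antigen UMI removed instead (adjusted p = 0.281).

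Clusters made up the class in unlike shares, as Tumor 1 had 106 of its 172 fibroblast-like cells in cluster 10, led by Crabp1, Mmp11 and Cthrc1, and Tumor 2 had 30 of 42 in clusters 4 and 5. Within cluster 4, Fgf2 had 16.8, 16.1, 5.89, 9.62, 30.3 and 30.7 CPM and Pdgfc 0.146, 0, 1.31, 0.962, 15.1 and 24.6 CPM. Within cluster 5, led by Gsta1, Pi16 and Dpt, Fgf2 had 11.5, 24.6, 2.14, 5.01, 65.8 and 139 CPM and Pdgfc 4.77, 2.59, 6.43, 7.07, 20.3 and 10.7 CPM. The Tumor libraries were thus highest in these 2 clusters for both genes, although the Pdgfc value of Tumor 2 in cluster 5 was 1 UMI. Cluster 10 differed for Fgf2, with 7.70 and 16.8 CPM in Prepuberty, 5.52 and 5.40 CPM in DCIS and 12.4 CPM in Tumor 1, which lay above DCIS but below Prepuberty 2. Pdgfc in cluster 10 was at most 2.07 CPM in the glands and 23.2 CPM in Tumor 1, and Tumor 2 had 3 cells there, too few for a level. In a fit limited to clusters 4 and 5, the clusters with at least 10 cells in every library, chosen after the clusters were seen and without cluster 10, Fgf2 against DCIS had a log2 fold change of 2.68 (edgeR adjusted p = 0.00899) and Pdgfc against Prepuberty 3.08 (adjusted p = 0.0184).

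Pdgfra, the alpha receptor of this class, stood at 444 and 335 CPM in Prepuberty, 312 and 278 CPM in DCIS, and 78.9 and 285 CPM in Tumor. Tumor 1 was far below the glands, and Tumor 2 lay among them in CPM. On the TMM-scaled sums used for the test both tumors lay below every gland, at 72.6 and 194.9 beside 333 to 474. The log2 fold change was -1.45 against DCIS (SE 0.51, edgeR adjusted p = 0.125) and -1.62 against Prepuberty (adjusted p = 0.108). Pdgfra was called in 5 of 17 alternatives in each comparison, with DESeq2, without a filter on low counts, without Tumor 2, and with T-antigen cells put back or all cells with a T-antigen UMI removed. Pdgfrb went the other way in Tumor 1, with 88.0, 41.1, 49.0, 36.3, 141 and 84.0 CPM, and did not pass (0.89 against DCIS, SE 0.52, edgeR adjusted p = 0.318). Pericyte and smooth muscle markers were also high there: 10 of 11 were seen in the fibroblast-like cells of Tumor 1, all except Higd1b, with a sum of 2818 CPM. The gland sums were 45.5 to 78.9 CPM, and Tumor 2 had 291 CPM with Notch3, Higd1b, Des and Tagln at 0. The part of these cells in the receptor levels was not tested.

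Single cells gave the same picture of the receptors. After each cell was thinned to 2000 UMIs, which left out 198, 207, 27, 129, 3 and 8 shallower cells, Pdgfra without Pdgfrb was seen in 33.8% to 45.3% of fibroblast-like cells of the glands, 13.02% in Tumor 1 and 29.4% in Tumor 2. Pdgfrb without Pdgfra was seen in 3.66% to 5.42% in the glands, 18.3% in Tumor 1 and 5.88% in Tumor 2, and both in 2.94% to 8.82% of cells. Before thinning, at a median of 6877 to 10703 UMIs per cell, the shares with Pdgfra alone were 41.1% to 52.8% in the glands, 18.6% in Tumor 1 and 40.5% in Tumor 2, and those with Pdgfrb alone 2.61% to 3.74%, 30.8% and 7.14%. T- or NK-cell-like cells, which should lack both receptors, had Pdgfra alone in 0% to 3.33% of cells and no Pdgfrb UMI before thinning, at a shallower median of 1221 to 2543.5 UMIs. After thinning to 2000 UMIs it was 5.71% in Prepuberty 2, 2 of 35 cells, and 0% in 4 other libraries with 7 to 75 such cells.

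The FGF ligands of the epithelial receptor, Fgf7 and Fgf10, did not pass in fibroblast-like cells as tested here. Fgf7 had 100, 172, 111, 92.3, 41.0 and 126 CPM, so that Tumor 1 was the lowest and Tumor 2 lay among the glands in CPM. On the TMM-scaled sums both tumors lay below all glands, at 37.7 and 86.2 beside 107 to 173, with a log2 fold change of -1.05 against DCIS (SE 0.49, edgeR adjusted p = 0.211) and -1.23 against Prepuberty (adjusted p = 0.177). Of 17 alternatives, 2 called Fgf7 against DCIS, with T-antigen cells put back (-3.20, adjusted p = 0.0166) or with each cell with a T-antigen UMI removed, and 3 against Prepuberty, the same settings and no filter on low counts. Fgf10 had 30.3, 6.63, 6.70, 7.09, 7.17 and 57.0 CPM, with 1 high library in Prepuberty and 1 in Tumor, and the Tumor 2 value was 19 UMIs. The ligands were unevenly spread over the fibroblast clusters. Fgf7 was 115 to 222 CPM in cluster 4, and 10.1 to 157 CPM in cluster 10. Fgf10 in Prepuberty 1 was 57.1 CPM in cluster 4 and 5.96 CPM in cluster 5.

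**Figure D3:**
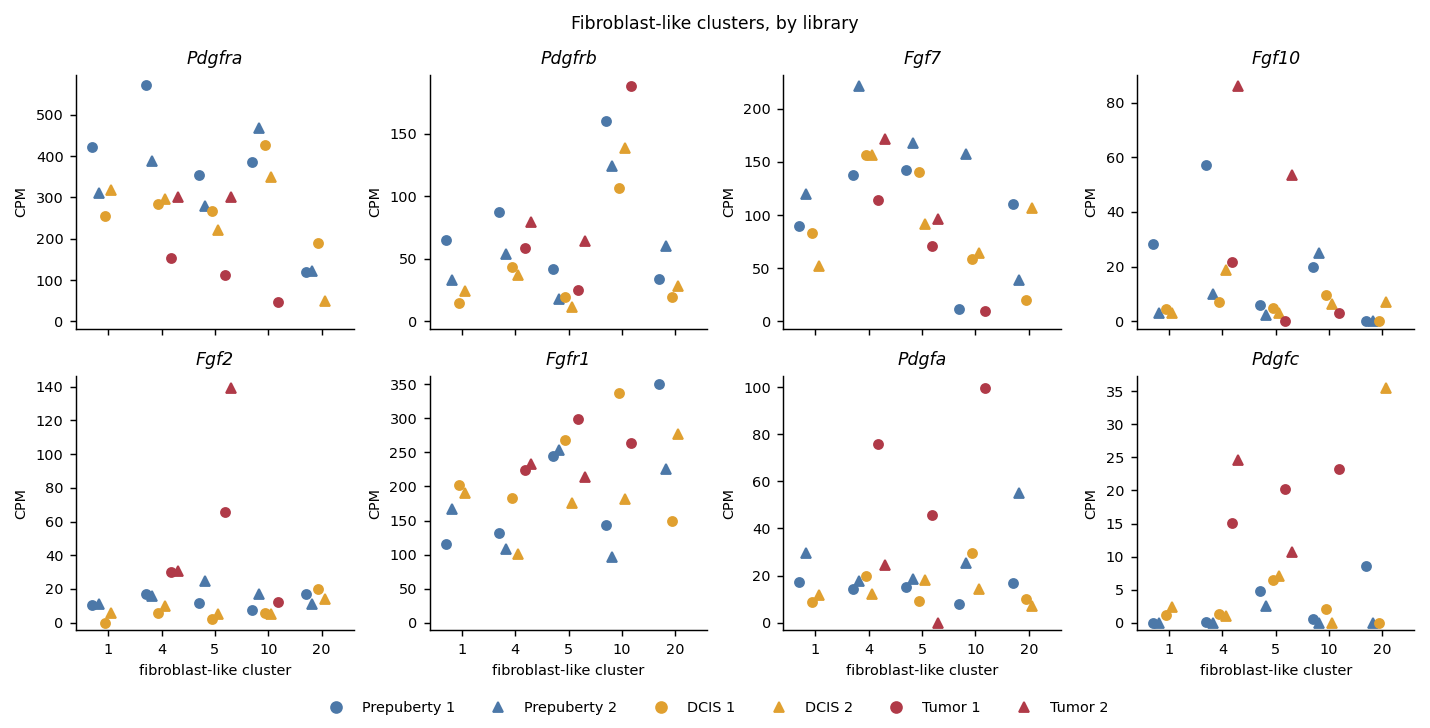
Levels in CPM of the member genes except Pdgfb and Fgfr2 in the clusters of fibroblast-like cells, by library. In clusters 4 and 5 the Tumor points of Fgf2 and Pdgfc lie above those of all glands, and Pdgfra in cluster 10 is lowest in Tumor 1, at 47.2 CPM.

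Fgfr1, with 158, 172, 249, 166, 259 and 195 CPM, and Pdgfa, with 13.8, 21.9, 17.7, 14.3, 88.6 and 21.0 CPM, did not pass in this class either. The high Pdgfa value was that of Tumor 1 alone (1.42 against DCIS, SE 0.62, edgeR adjusted p = 0.192), and without this library the log2 fold change was -0.47. These are the cells with 2818 CPM of pericyte and smooth muscle markers, and pericyte- or smooth-muscle-like cells of Tumor 1 had 326 CPM of Pdgfa. The part of such cells in this value, and in the differences between classes that use it, was not tested. Between DCIS and Prepuberty no gene of 11790 was called by edgeR (0%), 1214 had an unadjusted p under 0.05, and DESeq2 called 68. Among the members, Pdgfc (1.83, SE 0.52) and Fgf2 (-1.24, SE 0.44) had an unadjusted p under 0.05, and DESeq2 called 0.

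**Figure D4:**
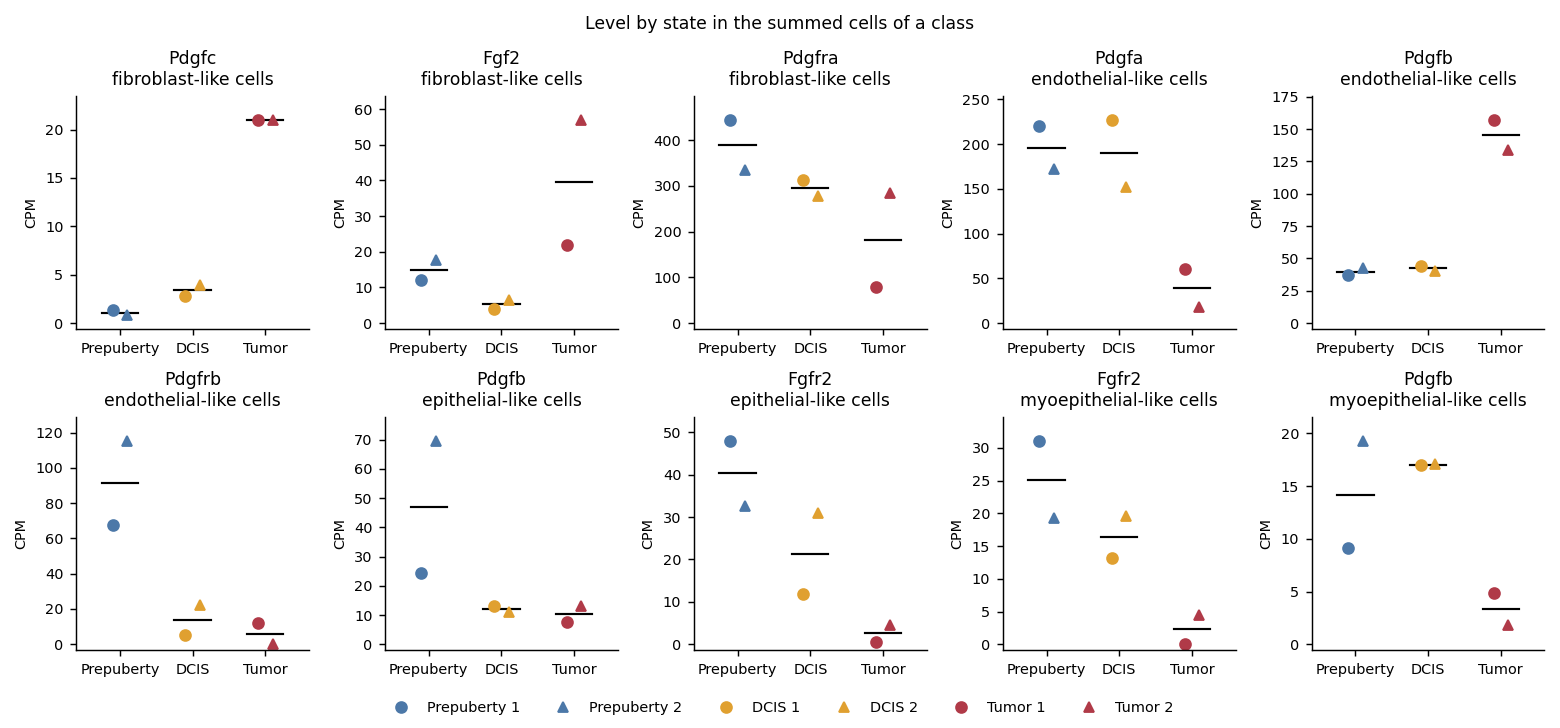
Levels in CPM of member genes by state in fibroblast-, endothelial-, epithelial- and myoepithelial-like cells, 1 point per library, with black bars at the mean of each state. Pdgfc in fibroblast-like cells is at 21.0 CPM in both Tumor libraries and at most 3.97 CPM in the glands, and Pdgfb in endothelial-like cells is at 157 and 134 CPM in Tumor and at most 44.5 CPM in the glands.

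In endothelial-like cells, both PDGF chains changed in the Tumor state in opposite directions, the B chain up and the A chain down. Pdgfb had 37.1 and 42.3 CPM in Prepuberty, 44.5 and 40.1 CPM in DCIS, and 157 and 134 CPM in Tumor, from 119 and 30 UMIs. The 4 glands lay close together and both tumors well above. The log2 fold change was 1.88 against Prepuberty (SE 0.25, edgeR adjusted p = 0.00249) and 1.46 against DCIS (SE 0.26, adjusted p = 0.00811). The call against Prepuberty held under each of 17 alternative settings. That against DCIS was lost without DCIS 2, without Tumor 1 and with library sums thinned to 1 total (adjusted p = 0.0549).

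Pdgfa had 220 and 172 CPM in Prepuberty, 227 and 152 CPM in DCIS, and 60.7 and 17.8 CPM in Tumor, the last from 46 and 4 UMIs. Both tumors lay below all glands. The log2 fold change was -2.39 against DCIS (SE 0.50, edgeR adjusted p = 0.0165) and -2.12 against Prepuberty (SE 0.50, adjusted p = 0.0253). The first was lost without DCIS 1 or Tumor 2, and the second without Prepuberty 1 or Tumor 2. Without Tumor 1 the values were -4.01 and -3.75, resting on the 4 UMIs of Tumor 2. Cluster 6, led by Gpihbp1, held 94 of the 107 Tumor cells of this class, and within it Pdgfb had 36.3, 34.8, 51.9, 33.7, 162 and 139 CPM and Pdgfa 173, 147, 272, 145, 59.8 and 18.5 CPM. Cluster 11, led by Ackr1 and Selp, held the other 13 Tumor cells.

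Pdgfrb RNA in endothelial-like cells was highest where pericyte markers were highest. It had 67.8 and 115 CPM in Prepuberty, 5.30 and 22.4 CPM in DCIS, 11.9 CPM in Tumor 1 and no UMI in Tumor 2, where a count of 0 allows up to 13.4 CPM. It fell in Tumor against Prepuberty by 3.34 on the log2 scale (SE 0.76, edgeR adjusted p = 0.0225), and this was lost without Prepuberty 2, Tumor 1 or Tumor 2. Without Tumor 1 the remaining tumor is at 0, and its fitted fold change is no bound. The summed pericyte and smooth muscle markers in the same cells were 650, 955, 190, 351, 366 and 174 CPM, with all 11 seen in 5 libraries and Notch3, Cspg4, Higd1b, Myh11, Acta2, Tagln and Rgs4 at 0 in Tumor 2. Their part in the Pdgfrb values was not tested. Fgfr1 had 58.8, 53.7, 54.1, 61.0, 141 and 75.7 CPM and did not pass (1.02 against Prepuberty, SE 0.33, edgeR adjusted p = 0.0728). It was called in 4 of 17 alternatives, and the value ran from 0.146 to 1.38 with 1 library left out.

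Of 5 members tested in this class, 2 were called against DCIS and 3 against Prepuberty. Of all 10513 genes, 14.7% and 13.2% were called in these comparisons. With 5 members tested the shares are coarse. Between DCIS and Prepuberty edgeR called no gene (0%), with 1307 at an unadjusted p under 0.05 of which 2 were members, Pdgfrb (-2.42, SE 0.53) and Pdgfra (-1.93, SE 0.53), and DESeq2 called 61 genes.

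Pericyte- or smooth-muscle-like cells were made of 2 clusters that differed in Pdgfa, Fgfr1 and Pdgfrb RNA. Cluster 14, led by Pcp4l1, Myh11 and Des, held Pdgfa at 1582, 907, 1298 and 976 CPM and Fgfr1 at 179, 91.9, 176 and 183 CPM in the 4 glands. Cluster 16, led by Rgs5, Kcnj8 and Il6, held Pdgfa at 191, 192, 229 and 175 CPM and Fgfr1 at 16.6, 25.2, 16.9 and 15.1 CPM. For Pdgfrb the order was turned, with 46.8, 70.0, 31.4 and 17.0 CPM in cluster 14 and 271, 233, 152 and 109 CPM in cluster 16. For each of these 3 genes the 4 gland values of one cluster lay apart from those of the other. A cluster against another is a description, and the 3 genes were not used in the clustering.

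**Figure D5:**
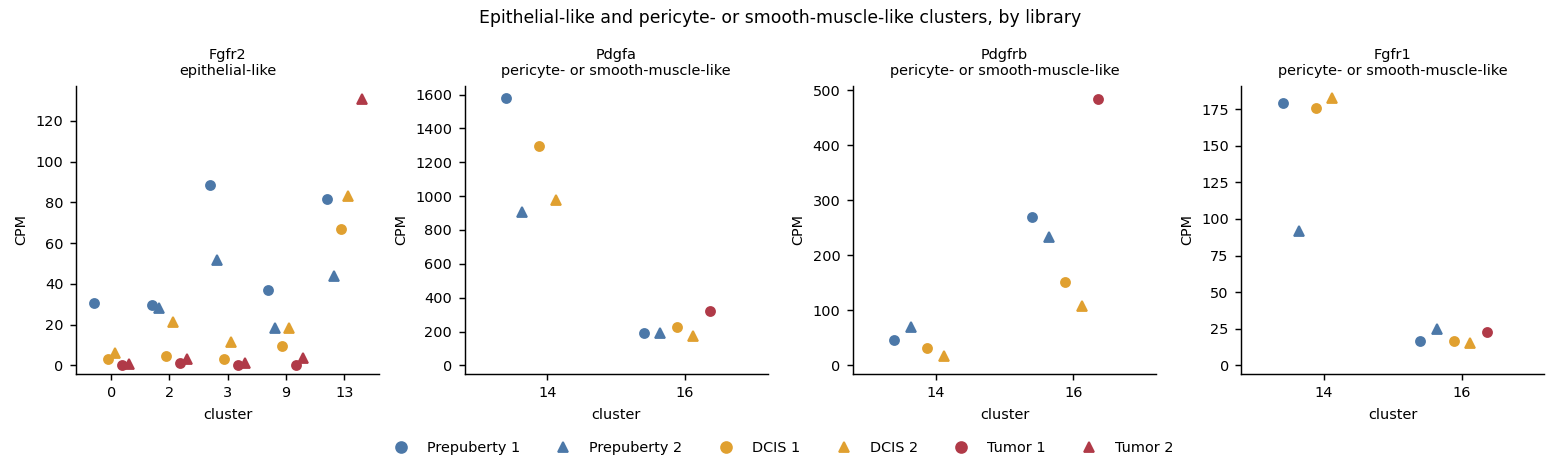
Levels in CPM, by library, of Fgfr2 in the clusters of epithelial-like cells and of Pdgfa, Pdgfrb and Fgfr1 in those of pericyte- or smooth-muscle-like cells. Pdgfa lies at 907 to 1582 CPM in cluster 14 and at 175 to 324 CPM in cluster 16, and Fgfr2 in epithelial-like cells is highest in cluster 13, at 43.8 to 131 CPM.

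Over the whole class, Pdgfrb had 178 and 142 CPM in Prepuberty and 104 and 57.9 CPM in DCIS, without overlap. Fgf7 had 12.9 and 36.8 CPM in Prepuberty and 50.5 and 44.4 CPM in DCIS, also without overlap. Neither difference passed, with log2 fold changes in DCIS of -0.81 for Pdgfrb (SE 0.34, edgeR adjusted p = 0.324) and 1.09 for Fgf7 (SE 0.43, adjusted p = 0.289). Pdgfa had 768, 592, 660 and 618 CPM in the glands. Of 6 members tested, edgeR called 0, beside 0.505% of all 7913 genes; 2 had an unadjusted p under 0.05, those above, and DESeq2 called 0. Tumor 1 alone had enough cells of this class, 25, and they held 7911 CPM of fibroblast markers, with 9 of 9 seen, beside 210 to 687 CPM in the glands. They had 462 CPM of Pdgfrb from 58 UMIs, 326 CPM of Pdgfa from 41 UMIs, and no Fgf7 UMI, which allows up to 23.9 CPM. With 1 Tumor library, differences were taken as fold changes with no call. Against DCIS the log2 fold change was 2.36 for Pdgfrb and -1.16 for Pdgfa. Tumor 1 had 18 of its 25 cells in cluster 16, the cluster low in Pdgfa, and within this cluster it held 323 CPM of Pdgfa from 28 UMIs and 485 CPM of Pdgfrb, both above all glands. The lower Pdgfa level of the whole class thus turned direction within cluster 16.

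In epithelial-like cells, Pdgfb and Fgfr2 fell in Tumor against Prepuberty. Pdgfb had 24.5 and 69.5 CPM in Prepuberty, 13.1 and 11.2 CPM in DCIS, and 7.69 and 13.3 CPM in Tumor. Prepuberty was the highest state. DCIS and Tumor overlapped in CPM but not on the TMM-scaled sums, with 14.4 and 12.9 in DCIS and 7.48 and 10.03 in Tumor, a difference that did not pass (-0.64, edgeR adjusted p = 0.413). The log2 fold change in Tumor against Prepuberty was -2.42 (SE 0.47, edgeR adjusted p = 0.0381). It was lost without Prepuberty 1, Prepuberty 2 or Tumor 1 and with only the libraries of the 2 states (adjusted p = 0.0607), and was -1.68 without Prepuberty 2, the library with 161 cells of this class.

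Fgfr2 had 47.9 and 32.7 CPM in Prepuberty, 11.8 and 30.9 CPM in DCIS, and 0.570 and 4.52 CPM in Tumor. Both tumors lay below all glands. DCIS lay below Prepuberty in CPM but not on the TMM-scaled sums, where DCIS 2 had 35.6 and Prepuberty 2 had 32.1. In Tumor it fell by 4.43 on the log2 scale against Prepuberty (SE 0.90, edgeR adjusted p = 0.0399), and the call was lost without Prepuberty 1 or Prepuberty 2, with only the libraries of the 2 states (adjusted p = 0.0531) and without cells with a T-antigen UMI (-3.47, adjusted p = 0.0707). Against DCIS the log2 fold change was -3.62 (SE 0.87, adjusted p = 0.0751). Cluster 13, led by Tph1, Cited1 and Prlr, had the most Fgfr2, 81.5, 43.8, 67.2 and 83.0 CPM in the glands and 131 CPM in Tumor 2. It held 315, 43, 140 and 309 cells in the glands, 8 in Tumor 1 and 44 in Tumor 2. Within cluster 13, Tumor 2 was thus above all glands. In the other clusters the tumors were low. In cluster 3, with Pthlh and Klk8 among its leading genes, they had 0.286 and 1.17 CPM, where the glands had 88.3, 51.9, 3.13 and 11.4 CPM. In a fit limited to clusters 2, 3 and 9, those with at least 10 cells in every library, which leaves out cluster 13, the log2 fold change against Prepuberty was -4.74 (edgeR adjusted p = 0.0364).

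Of 9 members tested in epithelial-like cells, all except Fgf10, 2 were called against Prepuberty, where 5.98% of 13387 genes were. Against DCIS edgeR called 0 members and 1.11% of genes, with 2 members at an unadjusted p under 0.05, Fgfr2 and Pdgfra, and 1 member called by DESeq2. Between DCIS and Prepuberty edgeR called no gene (0%), with 1646 genes and 4 members at an unadjusted p under 0.05, and DESeq2 called 3 members. These 4 were lower in DCIS, Pdgfb by a log2 fold change of -1.78, Pdgfra of -2.09, Pdgfrb of -3.48 and Fgf7 of -2.45, the last 3 from 3 to 111 UMIs per library. In Prepuberty 2, 8 of 13 Fgf7, 10 of 16 Pdgfrb and 7 of 19 Pdgfra UMIs came from the 56 cells of cluster 3. The 9 fibroblast markers, all seen in each library, summed to 190 and 313 CPM in the epithelial-like cells of Prepuberty, 73.5 and 147 CPM in DCIS, and 53.4 and 97.6 CPM in Tumor, and their part in these values was not tested. The members DESeq2 called were Pdgfb, Pdgfra and Pdgfrb. Fgf7 had 32 UMIs in Prepuberty, 17 in DCIS and 14 in Tumor, and its log2 fold change in Tumor against Prepuberty was -4.17 (SE 0.99, edgeR adjusted p = 0.0535), without overlap. Its levels, at most 5.38 CPM, are not separated from free RNA, since T- or NK-cell-like cells held up to 18.1 CPM of Fgf7 from 2 UMIs in all. The same holds for Pdgfra, at most 8.43 CPM here, beside up to 18.2 CPM in T- or NK-cell-like cells. For the other ligands and receptors no difference passed. Pdgfa had 72.9, 98.9, 163, 78.4, 134 and 87.0 CPM, Pdgfc 20.2, 17.8, 13.7, 12.2, 4.70 and 23.7 CPM, and Fgfr1 86.1, 113, 52.4, 56.2, 196 and 84.9 CPM. For Pdgfc and Fgfr1 DCIS lay below Prepuberty without overlap, and the tumors lay apart from each other. Levels of Fgf2, Fgf7 and Pdgfrb in this class were at most 6.62 CPM.

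In myoepithelial-like cells, Fgfr2, Pdgfb and Pdgfc were lower in Tumor in at least 1 comparison. Fgfr2 had 31.03, 19.3, 13.1 and 19.5 CPM in the glands, no UMI in Tumor 1, which allows up to 3.65 CPM, and 4.51 CPM from 5 UMIs in Tumor 2. It fell by 3.29 against DCIS (SE 0.79, edgeR adjusted p = 0.0156) and by 3.57 against Prepuberty (SE 0.82, adjusted p = 0.0262) on the log2 scale. These values were -2.28 and -2.56 with the members kept in clustering. Both calls were lost without cells with a T-antigen UMI, at -2.45 (adjusted p = 0.0527) and -2.72 (adjusted p = 0.0710). Without Tumor 2 the fitted values were -7.87 and -8.11, against a tumor at 0, and are no bound. Pdgfb had 9.13, 19.3, 17.0, 17.0, 4.87 and 1.80 CPM and fell by 2.96 against DCIS (SE 0.66, edgeR adjusted p = 0.0119), with 6 UMIs in both tumors. Pdgfc had 47.5 and 53.9 CPM in Prepuberty, 23.1 and 25.3 CPM in DCIS, and 7.30 and 27.1 CPM in Tumor, and fell by 1.83 against Prepuberty (SE 0.50, edgeR adjusted p = 0.0487), or by 2.92 without Tumor 2. This Pdgfc call was made in 7 of 15 alternatives. It was lost, among others, with DESeq2 (adjusted p = 0.0695), with the members kept in clustering (0.124) and without cells with a T-antigen UMI (-1.27, adjusted p = 0.213). Pdgfa had 162, 153, 186, 156, 106 and 24.4 CPM (-1.92 against DCIS, SE 0.62, edgeR adjusted p = 0.0506). This Pdgfa difference was called in 9 of 15 alternatives, and ran from -3.62 to -1.16 with 1 library left out. Against DCIS, Pdgfb lost its call without either DCIS library and Fgfr2 without DCIS 2. Against Prepuberty, Pdgfc and Fgfr2 lost their calls without either Prepuberty library.

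In the Tumor cells given this name, the contractile genes Acta2 and Myh11 were at 0 in both tumors. The 8 myoepithelial markers, of which the other 7 were seen, summed to 1823 and 4218 CPM beside 6245 to 11922 CPM in the glands, and the pericyte and smooth muscle markers, which myoepithelium shares in part, summed to 65.7 and 85.7 CPM beside 4458 to 11067 CPM in the glands. Epithelial markers summed to 6460 and 2905 CPM beside 715 to 1659 CPM, and without integration of the libraries no Tumor cell fell in this class. A T-antigen UMI was seen in 41 of 75 and 49 of 88 Tumor cells, and in 0 to 1 cells per gland. The differences above thus compare the glands' myoepithelial-like cells with Tumor cells of another make-up. Of 6 members tested, 2 were called against DCIS and 2 against Prepuberty, beside 24.4% and 9.78% of 8320 genes. Between DCIS and Prepuberty edgeR called no gene (0%), 919 genes and no member had an unadjusted p under 0.05, and DESeq2 called 42 genes and no member.

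The change of a gene in fibroblast-like cells was set against its change in another class in 1 model with the library as a block, over 13925 genes. From DCIS to Tumor, the log2 fold change of Pdgfa was higher in fibroblast-like than in endothelial-like cells by 3.87 (SE 0.56, edgeR adjusted p = 0.00363, beside 1.51% of genes called). Against epithelial-like cells, Pdgfc differed by 2.88 (SE 0.75, adjusted p = 0.0330), Pdgfra by -2.71 (SE 0.45, adjusted p = 0.00354) and Fgfr1 by -1.43 (SE 0.39, adjusted p = 0.0386), beside 7.37% of genes. Pdgfra in epithelial-like cells, at 1.74 to 8.43 CPM, is not separated from free RNA, since T- or NK-cell-like cells held up to 18.2 CPM. The Fgfr1 call was the least stable, made in 4 of 10 alternatives, and was also lost with DESeq2 size factors (adjusted p = 0.0722), with T-antigen cells put back (0.0524) and without cells with a T-antigen UMI (0.106). All 4 calls were lost without DCIS 1 or without DCIS 2, and those of Pdgfa, Pdgfc and Fgfr1 also without Tumor 1 (adjusted p = 0.117, 0.429 and 0.245). The Pdgfc difference was 1.42 without Tumor 1 and 3.83 without Tumor 2. Against pericyte- or smooth-muscle-like cells the Tumor arm was 1 library, so differences are given with no call for any member. Pdgfa differed by 3.10 there, beside 0.079% of genes called. That share rests on the same 1 library, so it is given as background only and decides nothing. From Prepuberty to DCIS no member was called in any of these tests, in which 0% of genes were called against pericyte- or smooth-muscle-like, 0% against endothelial-like and 0.768% against epithelial-like cells.

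Around the members, 66 further genes of the pathway were followed in 5 lists: 7 other PDGF ligand, processing and co-receptor genes, 19 other FGF ligands, 18 other FGF receptor, co-receptor and binding genes, 9 signal adaptors, and 13 feedback and target genes of ERK signalling. In fibroblast-like cells, 44 were tested, and 2 rose and 0 fell in Tumor against DCIS, 6 rose and 0 fell against Prepuberty, beside 4.43% and 3.94% of all genes called. The first share is near that of all genes. Nrp1, a co-receptor of growth factors, rose by 2.62 against DCIS (SE 0.45, edgeR adjusted p = 0.0251) and 3.32 against Prepuberty. The FGF ligand Fgf18 rose by 4.43 against DCIS (SE 0.86, adjusted p = 0.0311), from 6 UMIs in DCIS to 36 in Tumor. Against Prepuberty, Sulf1, a sulfatase that edits heparan sulfate, rose by 4.14, Spry1, a feedback inhibitor, by 2.42 and the glypican Gpc4 by 2.20, and Fgf9 had 14 UMIs in Tumor and 0 in Prepuberty. None of the 8 adaptors tested passed, and their median log2 fold change against DCIS was 0.10, beside 0.04 over all genes. The median of the 13 ERK feedback and target genes was 0.31.

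In endothelial-like cells 37 of the 66 genes were tested, with 2 higher and 2 lower in Tumor against DCIS and 6 higher and 4 lower against Prepuberty, beside 14.7% and 13.2% of all genes called. The share against DCIS is below that of all genes. Nrp1 rose by 1.92 against DCIS (SE 0.28, edgeR adjusted p = 0.00379) and Etv4, a transcription factor induced by ERK, by 4.96, from 2 UMIs in DCIS to 15 in Tumor. The syndecans Sdc4 and Sdc3 fell by 1.26 and 0.93. Among 12 ERK feedback and target genes, Etv4, Dusp5 and Spred1 rose and Spry2 fell against Prepuberty, so that feedback genes moved both ways. The endocytic receptor Lrp1 fell by 4.52, from 606 UMIs in Prepuberty to 2 in Tumor.

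In epithelial-like cells 49 were tested. The sulfatase Sulf2 rose by 2.06 against DCIS (SE 0.30, edgeR adjusted p = 0.0369), the only call in that comparison, where 1.11% of all genes were called. Against Prepuberty 4 genes rose and 0 fell, beside 5.98% of all genes, namely Gpc6 by 5.64, Plat, a protease, by 4.28, Etv4 by 2.27 and the syndecan Sdc1 by 2.17. The median of the 13 ERK feedback and target genes was 1.11 against DCIS, beside 0.08 over all genes, with 0 called. In myoepithelial-like cells 32 were tested, with 2 higher and 4 lower against DCIS, beside 24.4% of all genes called, Sulf2 at 4.19 and Sulf1 at -3.53 among them. Between DCIS and Prepuberty none of these genes was called by edgeR in any of the 5 classes, of 31 to 49 tested in each.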

How the data were processed

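Per the labels and file headers, the authors made 6 libraries with a 10x Genomics 3′ kit and deposited raw UMI counts per gene and cell from Cell Ranger 3.0.2. The submitters' processing notes name build mm10. Cells with at least 200 genes and under 10% mitochondrial UMIs were kept, and the 707 cells with the highest Scrublet scores (scanpy 1.11.5) were removed as doublets, 58 to 170 per library, as its automatic threshold marked 2 to 15 cells per library. Libraries were integrated with Seurat 5.3.0 (2000 variable genes without the 10 genes and 66 pathway genes, 20 components, resolution 0.8). Clusters were named from fixed markers, with at least 3 seen in 25% of cells at 2 times the other cells' mean. UMIs were summed per library and class and tested with the quasi-likelihood test of edgeR 4.0.16 (TMM, filterByExpr, state as the only term, two-sided), which was tested on simulated data. Alternatives are given at the end. All 10 genes are described, and of each pathway list at most 4 genes per comparison that passed, by size of change. The genes and lists were chosen with earlier results of these data known. Intervals and floors cover counting error only, with a floor of 3 counts.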

Additional observations from a re-analysis of the deposited data

Results flagged for a closer look

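The changes of 4 gene and class pairs from DCIS to Tumor differed between classes in a test of the difference itself, the class by state term of edgeR with the library as a block. Pdgfa differed by 3.87 on the log2 scale between fibroblast-like cells (1.42 in their own fit) and endothelial-like cells (-2.39). The fibroblast-like cells of Tumor 1, the library with the high Pdgfa, held 2818 CPM of pericyte and smooth muscle markers, whose part was not tested. Pdgfc differed by 2.88 between fibroblast-like cells (2.06) and epithelial-like cells (-0.38), a difference of 1.42 without Tumor 1. Pdgfra differed by -2.71 between fibroblast-like cells (-1.45) and epithelial-like cells (1.09), where its levels were 1.74 to 8.43 CPM and are not separated from free RNA. Fgfr1 differed by -1.43 between fibroblast-like cells (-0.43) and epithelial-like cells (1.06), with Tumor 1 the highest epithelial library. Each group holds 2 libraries, so no library was tested as an outlier.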

How the results depend on the processing

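Counts of member genes called depended on settings more than directions did. Of 2075 values of single members under alternatives, 86 changed sign, none of them called in either fit, 61 lost and 91 gained a call. Fibroblast-like cells, Tumor against DCIS, gave 1 called member, but 3 with DESeq2. It gave 4 with genes of low counts kept, with T-antigen cells put back or with each cell with a T-antigen UMI removed. It gave 0 at resolution 1.2, with the members kept in clustering, without integration, at a mitochondrial limit of 5% and with thinned sums, where Fgf2 and Pdgfc had too few counts to be tested. Against Prepuberty it gave 1, but 2 with DESeq2, 4 under the same 3 settings and 0 with thinned sums. Endothelial-like cells gave 2 against DCIS, 1 with thinned sums, and 3 against Prepuberty, 5 without a filter, and between DCIS and Prepuberty 0, 2 without a filter. Epithelial-like cells gave 0 between DCIS and Prepuberty, and 3 either with DESeq2 or with all genes kept. Tumor against DCIS gave 0 there, 1 with DESeq2, without a filter and with thinned sums, and against Prepuberty 2, but 0 with only the libraries of 2 states and 1 without cells with a T-antigen UMI. Myoepithelial-like cells gave 2 against DCIS, 4 without a filter, and 2 against Prepuberty, 4 without a filter, 1 with DESeq2, 2 states only, resolution 1.2 or members kept, and 0 without cells with a T-antigen UMI. The 4 differences between classes were 15 without a filter, and that of Fgfr1 was lost with DESeq2 size factors and under both other treatments of T-antigen cells. The cause was not tested. Leaving out 1 library gave, for Tumor against DCIS and Tumor against Prepuberty, 0 to 1 and 0 to 3 members in fibroblast-like, 1 to 2 and 2 in endothelial-like, 0 to 3 and 0 to 3 in epithelial-like, and 0 to 5 and 0 to 4 in myoepithelial-like cells, and 0 to 7 differences between classes. Without integration no Tumor cell was myoepithelial-like, so that comparison was not run. Tumor pericyte- or smooth-muscle-like cells came from 1 library, so their changes from DCIS, and the differences between classes that use them, are given with no call. The fit limited to clusters with at least 10 cells in every library was chosen after seeing the data and left each count of members within 1.5 times.

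Over all genes, edgeR called 522 in fibroblast-like cells for Tumor against DCIS, beside 240 to 1877 under other settings and 63 to 305 without 1 library. Against Prepuberty it called 465, beside 239 to 1827 and 57 to 402. In endothelial-like cells it called 1541 and 1388, beside 623 to 2392 and 618 to 2227, with 606 to 961 and 616 to 898 without 1 library. In epithelial-like cells it called 149 and 800, beside 0 to 1986 and 239 to 2695. There the 149 ran from 0 without DCIS 2 to 941 without Tumor 1, and the 800 from 0 without Prepuberty 2 to 1460 without Tumor 2. In myoepithelial-like cells it called 2026 and 814, beside 1411 to 3021 and 568 to 1548, with 674 to 2959 and 245 to 1493 without 1 library. In pericyte- or smooth-muscle-like cells it called 40 for DCIS against Prepuberty, beside 10 to 674, and in the other 4 classes 0, beside up to 336, 500, 710 and 168 without a filter.

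Libraries of different states share only a number. The correlations of the deviations of same-numbered libraries ran from -0.077 to 0.355 and were not all over 0.1, so the numbers were not taken as pairs. With the number as a replicate block, called members went from 0 to 2 in pericyte- or smooth-muscle-like cells and from 0 to 1 in endothelial-like cells for DCIS against Prepuberty, and from 2 to 1 in epithelial-like and myoepithelial-like cells for Tumor against Prepuberty, where Pdgfb in epithelial-like cells had an adjusted p of 0.0507. It left the other counts of members within 1.5 times.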

Other observations

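Genes with the most similar pattern to a member were taken over 50 class-by-library sums, as Pearson's r of log2(CPM + 1), among 8186 genes with a mean of at least 10 CPM. The sums share libraries and depth, so r is a description. Pdgfrb was most like Map1a (r = 0.89), Rem1 and Pde3a, and Fgf10 most like Pi16 (0.87), Dpep1 and Mfap4. Fgfr1 was most like Vldlr (0.86), Cttn and Trip6, Pdgfa like Zfp703 (0.82), Pdlim7 and Dstn, and Fgfr2 like Clca3a2 (0.82), Urah and Fgg. Fgf7 was most like Apod (0.81), Mfap5 and Ntrk2, Pdgfra like Crabp1 (0.81), Prg4 and Dcn, Pdgfb like Lrg1 (0.81), Rapgef5 and Cracr2b, Pdgfc like Urah (0.80), Sema3c and Tfap2b, and Fgf2 like Igfbp6 (0.79), Adamts5 and Dclk1. Urah was among the 3 genes most like both Pdgfc and Fgfr2.

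Classes outside the comparisons also held member RNA. Macrophage-like cells had 76.8, 22.8, 138, 82.5, 73.7 and 217 CPM of Pdgfa and 10.97, 6.23, 7.78, 10.2, 9.27 and 48.8 CPM of Pdgfb, and Tumor 2 was the highest library for both. The 5 neutrophil markers summed to 40.7 to 4896 CPM in the libraries of this class, and their part in these values was not tested. Schwann-like cells had 335, 230, 240 and 399 CPM of Pdgfa and 63.9, 91.6, 30.0 and 49.4 CPM of Fgf7 in the glands, where DCIS 1 rested on 17 cells, with 8 UMIs of Pdgfa and 1 of Fgf7. T-antigen mesenchymal cells had 179 and 274 CPM of Fgfr1 and 189 and 123 CPM of Pdgfa in Tumor 1 and Tumor 2, and held no Fgf10 UMI.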
